A study of Mus musculus with 24 samples.

Results

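The genes described here are the molecular chaperones of the mouse striatum and their closest helpers: the heat shock proteins (HSP), the J-proteins (DNAJ), the cytosolic chaperonin (CCT) and prefoldin, with the BAG proteins and 4 partners of HSP90. They were picked by symbol alone, as symbols that start with Hsp and a letter from a to h or a digit, Dnaja, Dnajb or Dnajc with a number, Cct2 to Cct8, Tcp1, Pfdn with a number, Bag1 to Bag6, Chordc1, Stip1, Ahsa1 or Ahsa2. Of 24079 genes counted, 99 matched, and the 79 with a mean of at least 50 reads over the 24 libraries are the members. The same minimum was met by 11979 genes in all. The members were 24 class C, 9 class B and 4 class A J-proteins, 10 relatives of HSP70, 8 CCT subunits, 6 BAG proteins, 4 prefoldin subunits, 4 HSP90 cochaperones, 3 HSP90 proteins, 2 small HSPs and the mitochondrial pair Hspd1 and Hspe1. A further 3 genes, Hspb11, Hspbp1 and Hspbap1, carry the letters of the family without belonging to the small HSPs.

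Libraries came from rpS6P-/- knockin mice, in which every phosphorylatable serine of ribosomal protein S6 is replaced by alanine, and from wild-type littermates, of both sexes and of mixed C57Bl/6, Sv129 and ICR descent. The accumbens nucleus (Acb) and the dorsal part of the striatum (DS) were dissected, and each lysate gave a whole-lysate library and a library of its heavy polysomal fractions, the part of the sucrose gradient holding mRNAs that carry, by the labels, more than 4 ribosomes (4 or more by the study's methods). Region, genotype and fraction together made 8 groups of 3 libraries, each from pooled mice. The comparisons asked which mRNAs differed with the loss of rpS6 phosphorylation, in abundance or on polysomes, in either region.

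Chaperones bind unfolded stretches of proteins and give them a chance to fold. HSP70 proteins do so in cycles of ATP hydrolysis, which J-proteins start and BAG and HSP110 proteins end by exchanging the nucleotide, and HSP90 takes over clients that are close to their final shape. The CCT ring encloses actin, tubulin and other newly made proteins that prefoldin hands to it, while HSP60 and HSP10 (Hspd1 and Hspe1) form the equivalent chamber in mitochondria. Neurons use the same machinery at the synapse, where HSC70 (Hspa8) works with the J-proteins Dnajc5 on synaptic vesicles and Dnajc6 on clathrin coats.

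Heavy polysomal libraries held 11109431 to 34703044 reads in genes and whole-lysate libraries 9280589 to 20259509. The members took 0.987 to 1.34% of the reads in the heavy libraries and 1.10 to 1.31% in the lysates. Rps6 itself did not differ between genotypes past the threshold in any of the 4 region and fraction pairs (log2 fold changes from -0.05 to 0.13, lowest adjusted p 0.819), and since the knockin changes codons, its counts do not check the labels. Markers of medium spiny neurons, the main striatal neurons, summed to 4346 to 5126 CPM (reads of a gene scaled to the size of its library) in the wild-type lysates, and endothelial markers to at most 14.8 CPM in any library. Between wild-type lysates, markers of cortical excitatory neurons summed to 83.1 to 157 CPM in Acb and 705 to 912 in DS, those of astrocytes to 1927 to 2414 and 1356 to 1398, and those of microglia to 193 to 227 and 105 to 130. Fewer cells of a type and less RNA per cell cannot be told apart in such bulk samples. Fold changes below are log2 values from edgeR's quasi-likelihood test with 3 libraries in each group. The standard errors after ± were derived from that test, as the size of the fold change divided by the square root of its F statistic. Adjusted p-values are Benjamini-Hochberg values over all genes tested, and a member is called when that value is under 0.05.

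Per kilobase of transcript, chaperone mRNAs spanned from among the most abundant in the tissue to the barely measured. Hspa8, the constitutive HSP70, had a median of 831 CPM per kilobase over the 12 lysates and ranked 18 among 16239 genes. Next came the cytosolic HSP90 pair, Hsp90ab1 at 607 (rank 45) and Hsp90aa1 at 419 (rank 98), followed by the prefoldin subunit Pfdn5 at 236 and the HSP10 gene Hspe1 at 127. The CCT subunits Tcp1 and Cct5 lay at 105 and 102, close to Hsph1 at 105 and Hsp90b1 at 100.2, and the class B J-protein Dnajb14 was lowest at 0.75. Hspa1a and Hspa1b, the heat-inducible HSP70 genes and a near-identical pair whose reads cannot be divided with certainty, averaged 27.96 and 30.1 reads a library, and the small HSP Hspb1 averaged 47.1, with 0 reads in the lowest library and 202 in the highest. These 3 fell short of the minimum, as did Dnajc25 at 42.2, while Hspb6 at 80.3 and Hspbap1 at 96.7 were the members nearest to it. In 7 members, Hspe1 and Hspd1 foremost, named pseudogenes exist in the annotation, so a part of their reads may be shared.

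The heavy polysomal fractions were compared first with the whole lysates, which asks how the level of each chaperone mRNA, relative to other mRNAs, differed between them. Each library is scaled to its own size, so these fold changes do not give the share of an mRNA that sat on large polysomes. In every group more than 4 of the 8 cytosolic HSP90, HSP70 and HSP110 mRNAs were called lower in the heavy fractions. CCT mRNAs were called lower and prefoldin mRNAs higher in 3 of the 4 groups, and in rpS6P-/- Acb 0 CCT mRNAs were called and 2 prefoldin mRNAs were lower. BAG mRNAs were called in both directions. In wild-type Acb 21 members were called higher and 25 lower (34.3% of the 11979 genes with the same minimum were called in either direction), in rpS6P-/- Acb 15 and 14 (22.1%), in wild-type DS 18 and 16 (31.5%) and in rpS6P-/- DS 21 and 25 (37.5%). The members' medians were -0.07, -0.02, -0.01 and -0.10, next to 0.04, 0.04, 0.01 and 0.02 over all genes with that minimum. A set of 7 members was called lower in all 4 comparisons, which share no library: Hsp90ab1, Hsp90aa1, Hspa4, Hsph1, Hspa12a, Bag6 and Dnajc13. Another 7 were called higher in all 4: Ahsa1, Bag4, Bag5, Dnaja3, Dnaja4, Dnajc8 and Dnajc9. How many of all genes were called in all 4 was not counted, so these numbers do not show a trait of chaperones.

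Hsp90ab1, the constitutive cytosolic HSP90, showed the gap most regularly. Its lysates read 1330.3, 1437 and 1408 CPM in wild-type Acb, 1443, 1537 and 1412 in rpS6P-/- Acb, 1693, 1578 and 1521 in wild-type DS and 1774, 1702 and 1666 in rpS6P-/- DS. Its heavy libraries read 683, 878 and 579.7 CPM in wild-type Acb, 826, 721 and 917 in rpS6P-/- Acb, 839.6, 939 and 876 in wild-type DS and 869.8, 778 and 768 in rpS6P-/- DS. Every lysate lay above every heavy library, and the log2 fold changes were -1.02 ± 0.14 in wild-type Acb (adjusted p = 8.95e-06), -0.86 ± 0.15 in rpS6P-/- Acb (adjusted p = 1.72e-04), -0.85 ± 0.13 in wild-type DS (adjusted p = 1.18e-05) and -1.13 ± 0.12 in rpS6P-/- DS (adjusted p = 4.41e-11). Its inducible relative Hsp90aa1 had lysate levels of 1093, 1336 and 1097 CPM in wild-type Acb, 1235, 1194 and 1163 in rpS6P-/- Acb, 1562, 1414 and 1412 in wild-type DS and 1654, 1649 and 1569.8 in rpS6P-/- DS. Its heavy levels were 691, 901 and 555 CPM in wild-type Acb, 829, 782 and 914 in rpS6P-/- Acb, 1245, 1079 and 979.95 in wild-type DS and 1008, 872 and 956 in rpS6P-/- DS, below every lysate of the same region and genotype, and the log2 fold changes ran from -0.82 to -0.41.

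The HSP110 proteins, which exchange the nucleotide of HSP70, followed. Hspa4 read 243, 225 and 231 CPM in the lysates of wild-type Acb, 259, 278 and 259.5 of rpS6P-/- Acb, 308, 305 and 295 of wild-type DS and 343, 358 and 311 of rpS6P-/- DS. In the heavy fractions it read 118, 154 and 101 CPM in wild-type Acb, 144, 143 and 162 in rpS6P-/- Acb, 159, 174 and 157 in wild-type DS and 153, 151 and 160.1 in rpS6P-/- DS. All 12 heavy values were under all 12 lysate values, with log2 fold changes of -0.96 ± 0.15, -0.85 ± 0.16, -0.89 ± 0.14 and -1.16 ± 0.13 in wild-type Acb, rpS6P-/- Acb, wild-type DS and rpS6P-/- DS and adjusted p-values of 4.10e-05, 4.01e-04, 2.37e-05 and 5.49e-10. Hsph1 (HSP105) read 348, 447 and 291 CPM in the lysates of wild-type Acb, 391, 402 and 351 of rpS6P-/- Acb, 443, 384 and 401 of wild-type DS and 526, 459.6 and 394 of rpS6P-/- DS. Its heavy libraries held 189, 278 and 147 CPM in wild-type Acb, 245, 197 and 266 in rpS6P-/- Acb, 304, 286 and 226 in wild-type DS and 248, 201 and 203 in rpS6P-/- DS, and its log2 fold changes lay between -1.12 and -0.59. Hspa12a, a distant HSP70 relative abundant in brain, went from 163, 141 and 153 CPM in the lysates of wild-type Acb, 151, 160.3 and 145 of rpS6P-/- Acb, 199.8, 194 and 169 of wild-type DS and 203, 197 and 206 of rpS6P-/- DS to heavy levels of 78.7, 71.5 and 76.5 CPM in wild-type Acb, 83, 91.2 and 101 in rpS6P-/- Acb, 77.7, 100.1 and 104 in wild-type DS and 96.6, 87.1 and 95.2 in rpS6P-/- DS. Its groups did not overlap in any of the 4 pairs (-1.06 ± 0.14, adjusted p = 4.91e-06 in wild-type Acb, -1.0 ± 0.16, adjusted p = 1.95e-05 in wild-type DS and -1.16 ± 0.14, adjusted p = 2.02e-09 in rpS6P-/- DS).

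Hspa8, the most abundant member, was lower in the heavy fractions in Acb and in rpS6P-/- DS. Lysates held 1649, 2025 and 1748 CPM in wild-type Acb, 1939, 1859.8 and 1812 in rpS6P-/- Acb, 2036, 1954 and 2265 in wild-type DS and 2341, 2052 and 2028 in rpS6P-/- DS. Heavy libraries held 1082, 1433 and 835 CPM in wild-type Acb, 1297, 1092 and 1386 in rpS6P-/- Acb, 1894, 1617 and 1533 in wild-type DS and 1398, 1246 and 1364 in rpS6P-/- DS. The log2 fold changes were -0.75 ± 0.16 (adjusted p = 6.63e-04) in wild-type Acb, -0.59 ± 0.14 (0.00459) in rpS6P-/- Acb, -0.31 ± 0.13 (0.083) in wild-type DS and -0.72 ± 0.11 (1.34e-06) in rpS6P-/- DS, so it was called in all but wild-type DS. Together the 8 cytosolic HSP90, HSP70 and HSP110 members were called lower in 7, 5, 5 and 7 cases in wild-type Acb, rpS6P-/- Acb, wild-type DS and rpS6P-/- DS, with medians of -0.82, -0.62, -0.50 and -0.97, next to 17%, 12.1%, 15% and 19.4% of all genes called lower. The 5 in wild-type DS became 3 without lysate replicate 1 and 2 with the trend on coding length over all genes removed. The Hsp70 relative Hspa14, which serves at the ribosome with the J-protein Dnajc2, stood apart from the others and was called higher in both genotypes of Acb (0.51 ± 0.19, adjusted p = 0.0415 and 0.72 ± 0.20, adjusted p = 0.0135).

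Bag6, which shields the exposed membrane segments of newly made proteins, had the lowest heavy-to-lysate ratio of the called members in wild-type Acb. Lysates read 134, 110.04 and 116 CPM in wild-type Acb, 124, 127 and 136 in rpS6P-/- Acb, 129, 146 and 141 in wild-type DS and 122, 128 and 132 in rpS6P-/- DS. Heavy libraries read 47.7, 59.5 and 47.3 CPM in wild-type Acb, 87.1, 63.6 and 103 in rpS6P-/- Acb, 71.1, 68.5 and 59.6 in wild-type DS and 64.3, 46 and 44.9 in rpS6P-/- DS. No heavy value reached a lysate value, and the log2 fold changes were -1.27 ± 0.16 (adjusted p = 1.47e-06), -0.63 ± 0.18 (0.0156), -1.07 ± 0.16 (8.43e-06) and -1.34 ± 0.16 (1.13e-09) in the order given above. Bag1, a nucleotide exchange factor of HSP70, read 92.6, 109.6 and 122 CPM in the lysates of wild-type Acb, 89.8, 94 and 101 of rpS6P-/- Acb, 99.5, 98.7 and 82.7 of wild-type DS and 104, 96.5 and 97.5 of rpS6P-/- DS. With heavy levels of 91.8, 50 and 41.9 CPM in wild-type Acb, 59.6, 30.9 and 40.2 in rpS6P-/- Acb, 87.3, 69.7 and 74.6 in wild-type DS and 65.2, 77.9 and 97.5 in rpS6P-/- DS, it fell in both genotypes of Acb (-0.87 ± 0.21, adjusted p = 0.00224 in wild-type and -1.15 ± 0.20, adjusted p = 2.51e-04 in rpS6P-/- samples).

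All 8 CCT subunits had negative fold changes in 3 of the 4 comparisons. They were called lower in 7 of 8 cases in wild-type Acb, 0 in rpS6P-/- Acb, 4 in wild-type DS and 7 in rpS6P-/- DS, with medians of -0.59, -0.07, -0.39 and -0.54, next to the shares of all genes given above. The 7 in wild-type Acb became 4 without heavy replicate 3, the 4 in wild-type DS became 2 without lysate replicate 1, and in rpS6P-/- Acb 1 was called without heavy replicate 3. Summed over the subunits, the wild-type Acb lysates held 1332, 1496 and 1559 CPM and the heavy libraries 934, 1200 and 889. The rpS6P-/- Acb lysates held 1431, 1425 and 1488 CPM and the heavy libraries 1239.7, 1249 and 1647, so the heavy library of replicate 3 exceeded every lysate there. Tcp1, the first-named subunit, read 258, 264 and 256 CPM in the lysates of wild-type Acb, 241, 279.7 and 248 of rpS6P-/- Acb, 284, 293 and 255 of wild-type DS and 286, 230.5 and 248 of rpS6P-/- DS. In the heavy fractions it read 157, 169.5 and 139 CPM in wild-type Acb, 176, 171 and 235 in rpS6P-/- Acb, 200.1, 186 and 173 in wild-type DS and 184, 149 and 170.2 in rpS6P-/- DS, which separated from the lysates in all 4 pairs. Cct5, another subunit of the ring, went from 172, 187 and 213 CPM in the lysates of wild-type Acb, 191, 194 and 187 of rpS6P-/- Acb, 202, 173 and 219 of wild-type DS and 195, 158 and 176 of rpS6P-/- DS to 117, 156 and 116 CPM in the heavy fractions of wild-type Acb, 163, 162 and 203 of rpS6P-/- Acb, 136, 129.8 and 124 of wild-type DS and 159, 121 and 125 of rpS6P-/- DS. Its rpS6P-/- Acb heavy and lysate values overlapped, and they did not in wild-type Acb (-0.61 ± 0.15, adjusted p = 0.00343).

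On the higher side the 4 lowest p-values in wild-type Acb belonged to J-proteins, and in rpS6P-/- DS Hspe1, Pfdn1 and Pfdn4 came before the first J-protein. Dnajc8, a J-protein of the spliceosome, read 83.5, 90.6 and 115 CPM in the lysates of wild-type Acb, 95.4, 93.5 and 84.2 of rpS6P-/- Acb, 101, 103 and 102 of wild-type DS and 98.8, 85.8 and 97.8 of rpS6P-/- DS. Its heavy libraries read 195, 179 and 194 CPM in wild-type Acb, 148, 181 and 123 in rpS6P-/- Acb, 241, 208 and 178 in wild-type DS and 136, 155 and 188 in rpS6P-/- DS. They lay above every lysate, with log2 fold changes of 0.93 ± 0.15 (adjusted p = 4.10e-05) in wild-type Acb, 1.03 ± 0.15 (9.96e-06) in wild-type DS, and 0.71 at the least among the 4. Dnajc9, which also handles histones, went from 27.2, 38.7 and 32.6 CPM in the lysates of wild-type Acb, 27.9, 31.6 and 40.5 of rpS6P-/- Acb, 31.6, 27 and 28.9 of wild-type DS and 26.9, 21.8 and 29.9 of rpS6P-/- DS to 64.3, 58.7 and 56.3 CPM in the heavy fractions of wild-type Acb, 55.8, 61.6 and 57.8 of rpS6P-/- Acb, 68.9, 49.2 and 57.9 of wild-type DS and 46.4, 46.8 and 55.3 of rpS6P-/- DS. The 12 heavy values were all above the 12 lysate values (1.0 ± 0.19, adjusted p = 2.16e-04 in wild-type DS). Dnajc5, the cysteine string protein of synaptic vesicles, was high throughout, with 304, 287 and 279 CPM in the lysates of wild-type Acb, 333, 299 and 265 of rpS6P-/- Acb, 349, 345 and 274 of wild-type DS and 336, 318 and 344 of rpS6P-/- DS. Its heavy levels of 468, 436 and 505 CPM in wild-type Acb, 441, 483 and 359 in rpS6P-/- Acb, 457, 449.9 and 415 in wild-type DS and 404, 386 and 410.3 in rpS6P-/- DS were above the lysates of the same group in every pair, and it was called in all but rpS6P-/- DS (0.64 ± 0.13, adjusted p = 6.65e-04 in wild-type Acb).

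Dnajb2, a J-protein enriched in neurons, read 97.8, 75.9 and 72.8 CPM in the lysates of wild-type Acb, 106, 107 and 99.4 of rpS6P-/- Acb, 92.5, 102 and 61.7 of wild-type DS and 84.6, 81.4 and 86.4 of rpS6P-/- DS. It read 135, 153 and 157 CPM in the heavy fractions of wild-type Acb, 145, 137 and 112 of rpS6P-/- Acb, 151, 156 and 149.9 of wild-type DS and 131, 128 and 139 of rpS6P-/- DS and was called in 3 of the 4 pairs, first in wild-type Acb (0.80 ± 0.15, adjusted p = 2.65e-04). Dnajb6, known for keeping polyglutamine proteins soluble, had the lowest p-value of the members that rose in rpS6P-/- Acb, where lysates held 158, 184 and 156 CPM and heavy libraries 297, 281 and 332 (0.85 ± 0.16, adjusted p = 4.60e-04). Dnaja3, a mitochondrial J-protein, held 65.4, 74 and 77.2 CPM in the same lysates and 117, 127 and 133 in the heavy libraries (0.78 ± 0.17, adjusted p = 0.00163). Dnajc24, needed for the diphthamide of elongation factor 2, was scarce, with 6.11, 3.8 and 2.17 CPM in wild-type Acb lysates and 12.4, 15 and 12.9 in the heavy libraries (1.64 ± 0.34, adjusted p = 6.92e-04). Bag5, an exchange factor of HSP70, held 47.2, 56.9 and 65.6 CPM in the lysates of wild-type Acb, 49.5, 50.1 and 36.2 of rpS6P-/- Acb, 59.5, 64.4 and 44.4 of wild-type DS and 50.3, 58.3 and 60.5 of rpS6P-/- DS. Its heavy levels were 81.1, 104 and 87.6 CPM in wild-type Acb, 88.3, 77.1 and 84.1 in rpS6P-/- Acb, 112, 109.5 and 98.6 in wild-type DS and 84.8, 103 and 97.1 in rpS6P-/- DS, all above the lysates (0.93 ± 0.17, adjusted p = 1.34e-04 in wild-type DS and 0.86 ± 0.18, adjusted p = 0.00176 in rpS6P-/- Acb).

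The HSP90 helpers were split. Ahsa1, which speeds the ATPase of HSP90, was called higher in all 4 pairs although both cytosolic HSP90 mRNAs were lower. Its lysates held 109.5, 112 and 124 CPM in wild-type Acb, 106, 144 and 106 in rpS6P-/- Acb, 121, 124 and 133 in wild-type DS and 139, 132 and 119 in rpS6P-/- DS. Its heavy libraries held 179.9, 254 and 155 CPM in wild-type Acb, 218, 192 and 215 in rpS6P-/- Acb, 232, 229 and 202 in wild-type DS and 162, 187 and 166 in rpS6P-/- DS, with no overlap (0.79 ± 0.17, adjusted p = 0.0016 in rpS6P-/- Acb and 0.81 ± 0.15, adjusted p = 1.19e-04 in wild-type DS). Stip1 (HOP), which joins HSP70 to HSP90, read 154, 175 and 174 CPM in the lysates of wild-type Acb, 145, 197 and 182 of rpS6P-/- Acb, 189, 155 and 182 of wild-type DS and 216, 182 and 165 of rpS6P-/- DS and 116, 145 and 104 CPM in the heavy fractions of wild-type Acb, 151, 138 and 194 of rpS6P-/- Acb, 145, 135 and 133 of wild-type DS and 138, 107 and 114 of rpS6P-/- DS, with adjusted p-values of 0.0117, 0.663, 0.0922 and 1.27e-04. Dnajb1 (HSP40), the usual J-partner of HSP70 after stress, read 53.3, 50.5 and 66.8 CPM in the lysates of wild-type Acb, 51, 88.8 and 62.2 of rpS6P-/- Acb, 52.6, 65.3 and 57.5 of wild-type DS and 66.6, 80.5 and 59.1 of rpS6P-/- DS. Its heavy levels were 86.4, 76.9 and 83.1 CPM in wild-type Acb, 83.3, 73.8 and 132 in rpS6P-/- Acb, 95.6, 80.5 and 85.2 in wild-type DS and 97.7, 76.9 and 79.6 in rpS6P-/- DS, with log2 fold changes of 0.48 ± 0.16, 0.50 ± 0.22, 0.57 ± 0.17 and 0.26 ± 0.16 and adjusted p-values of 0.0245, 0.117, 0.0112 and 0.223.

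Prefoldin mRNAs were called higher on heavy polysomes in 2 of 4 cases in wild-type Acb, 3 in wild-type DS and 3 in rpS6P-/- DS, and called lower in 2 in rpS6P-/- Acb. The shares of all genes called higher were 17.3%, 9.97%, 16.5% and 18.1% in wild-type Acb, rpS6P-/- Acb, wild-type DS and rpS6P-/- DS. With the trend on coding length removed, 0, 0, 1 and 1 were called higher and 2, 2, 0 and 1 lower. The 2 in wild-type Acb became 1 without heavy replicate 1 or 3 or lysate replicate 1, the 2 in rpS6P-/- Acb became 1 without heavy replicate 3 or lysate replicate 1 or 2, and the 3 in wild-type DS became 1 without heavy replicate 1 or lysate replicate 2. In rpS6P-/- DS Pfdn1 and Pfdn4 rose (0.96 ± 0.15, adjusted p = 4.74e-07 and 1.13 ± 0.17, adjusted p = 6.68e-07), as did the HSP10 gene Hspe1 (1.08 ± 0.14, adjusted p = 2.13e-08) and the mitochondrial J-protein gene Dnajc15 (0.96 ± 0.19, adjusted p = 4.13e-05). In rpS6P-/- Acb Pfdn5 fell (-0.82 ± 0.18, adjusted p = 0.00164). Dnajc15 in rpS6P-/- DS held 23.3, 31.6 and 35.2 CPM in the lysates and 62.7, 47 and 70.2 in the heavy libraries, which do not overlap. The library values of the prefoldins and Hspe1 are given below with the genotypes.

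These differences moved with the length of the coding sequence. The 7 members lower in all 4 comparisons have coding sequences of 2025 to 6744 bases (median 2526), and the 7 higher in all 4 have 759 to 1440 (median 1191). Across the 78 members with an annotated length, Spearman's rank correlation between coding length and fold change was -0.68 in wild-type Acb, -0.34 in rpS6P-/- Acb, -0.64 in wild-type DS and -0.76 in rpS6P-/- DS. Over 11656 to 11659 genes with the same minimum it was -0.57, -0.32, -0.61 and -0.68, so the members share the direction of the table as a whole, and genes are not independent replicates. The 24 members with coding sequences under 1000 bases had medians of 0.55, 0.04, 0.42 and 0.60, and the 54 longer ones -0.35, -0.08, -0.08 and -0.43. With the trend on coding length over all genes removed, the rank correlation in the members was -0.35, -0.26, -0.16 and -0.39, and the 8 cytosolic HSP90, HSP70 and HSP110 members had medians of -0.54, -0.48, -0.17 and -0.62. Over all genes with the minimum the medians were then 0.07, 0.11, 0.04 and 0.02. The part of length in the result was not tested further.

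**Figure D1:**
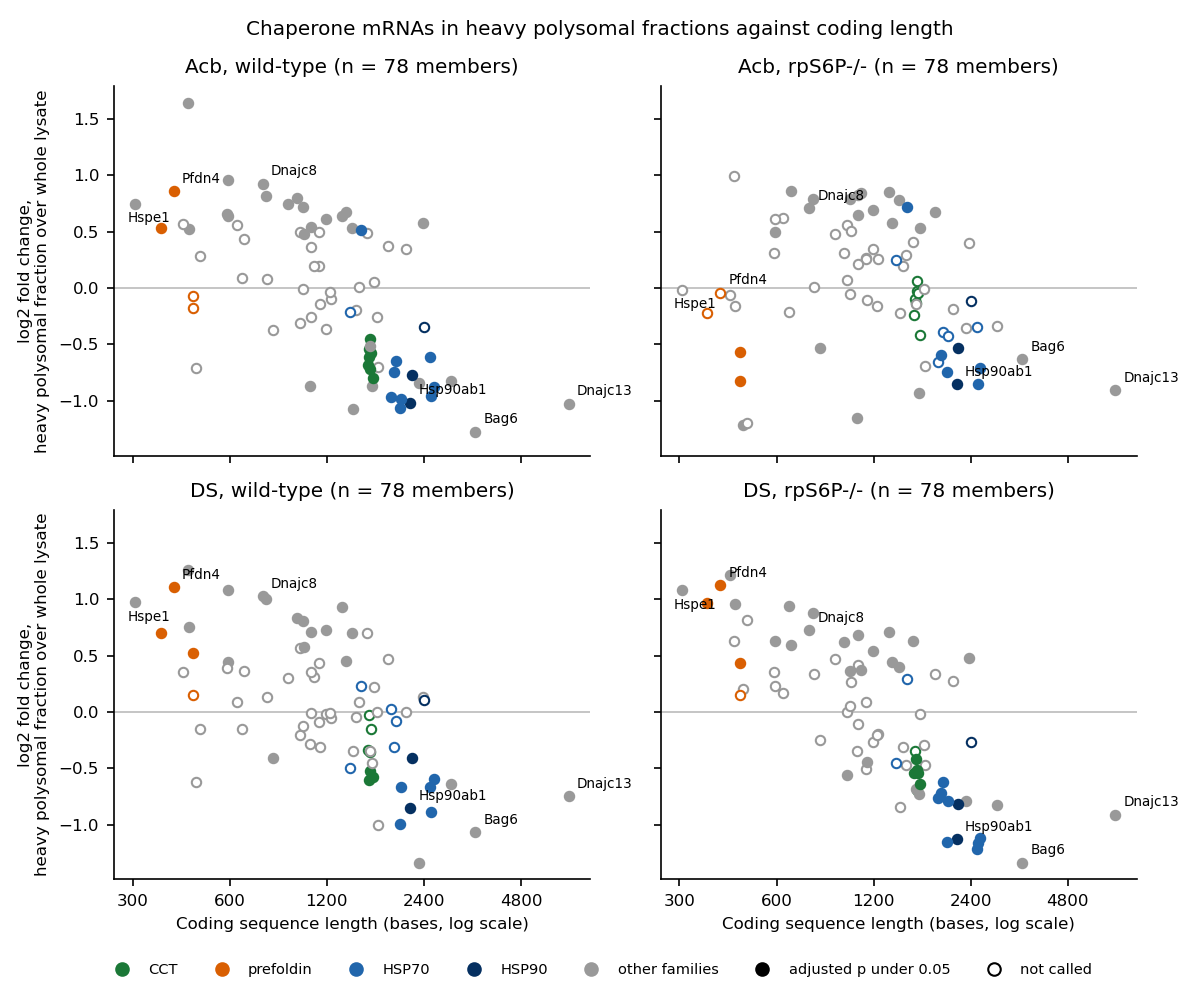
Each panel plots the log2 fold change of heavy polysomal over whole-lysate libraries against coding length in bases (log axis) for the 78 members with a length, with CCT in green, prefoldin in orange, HSP70 and HSP90 in blue and filled points for adjusted p under 0.05. Long mRNAs lie below short ones in all 4 panels, with rank correlations from -0.34 in rpS6P-/- Acb to -0.76 in rpS6P-/- DS.

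Of 55 further folding genes outside the symbol rule, listed with earlier results of these data known, 13, 13, 13 and 14 were called higher in the heavy fractions and 4, 4, 4 and 8 lower, in the same order of groups, next to 17.3%, 9.97%, 16.5% and 18.1% of all genes higher and 17%, 12.1%, 15% and 19.4% lower. In wild-type Acb the prefoldin subunit Vbp1 (1.12 ± 0.16, adjusted p = 8.92e-06), the HSP90 cochaperone p23 (Ptges3, 1.07 ± 0.16, adjusted p = 1.18e-05) and the mitochondrial exchange factor Grpel1 (1.07 ± 0.16, adjusted p = 1.36e-05) had the lowest p-values on the higher side.

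The regions were compared next, Acb over DS, within each genotype and fraction. The 8 chaperones listed here for the endoplasmic reticulum (ER) mostly had higher values in Acb, and the cytosolic HSP90 and HSP70 members that were called were lower. Wild-type lysates had 6 members called higher in Acb and 4 lower (16.1% of genes called in either direction), rpS6P-/- lysates 5 and 7 (13.8%), wild-type heavy fractions 5 and 2 (10.6%) and rpS6P-/- heavy fractions 7 and 10 (23.8%). Medians were 0.01, -0.03, -0.02 and 0.21, next to -0.01, -0.003, 0.004 and 0.03 over all genes with the minimum. Among the 8 members listed for the ER, all 8 had higher values in Acb in wild-type lysates and 5 were called (median 0.67), next to 8.23% of all genes called higher. In rpS6P-/- lysates 7 of 8 were higher and 3 called (median 0.18, all genes 6.09%), in wild-type heavy fractions 8 and 3 (median 0.51, all genes 6.13%), and in rpS6P-/- heavy fractions 7 and 2 (median 0.41, all genes 10.1%). The list of ER members was written after the values had been seen and is not complete, as other J-proteins of the ER membrane were left out. Of these, Dnajb12, Dnajb14, Dnajc16 and Dnajc18 were higher in Acb in all 4 comparisons. Dnajc14 was higher in 1 and was called lower in rpS6P-/- heavy fractions (-0.62).

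Hspa5 (BiP), the HSP70 of the ER lumen and a regulator of the response to unfolded proteins there, is at chr2:34772090-34776529 in GRCm38.p6. Its lysates read 233, 344 and 216 CPM in wild-type Acb, 128, 113 and 183 in wild-type DS, 195, 220.5 and 244 in rpS6P-/- Acb and 216, 214 and 193 in rpS6P-/- DS. The wild-type Acb values were all above the wild-type DS values, with a log2 fold change of 0.94 ± 0.15, adjusted p = 1.00e-05, while the rpS6P-/- values overlapped (0.10 ± 0.11, adjusted p = 0.673). Hsp90b1 (GRP94), the HSP90 of the ER (chr10:86690841-86705444), read 292, 409 and 316 CPM in the lysates of wild-type Acb, 212, 222 and 219 of wild-type DS, 336, 308 and 311 of rpS6P-/- Acb and 274, 262 and 246 of rpS6P-/- DS. Acb lay above DS without overlap in both genotypes (0.67 ± 0.12, adjusted p = 6.86e-05 in wild-type and 0.31 ± 0.10, adjusted p = 0.0344 in rpS6P-/- lysates). In the heavy fractions neither was called. There Hspa5 read 156, 269 and 98.9 CPM in wild-type Acb, 130.1, 109.8 and 161 in wild-type DS, 169, 138 and 202 in rpS6P-/- Acb and 132, 154 and 129 in rpS6P-/- DS. Hsp90b1 read 246, 359 and 224 CPM in wild-type Acb, 266, 211 and 224 in wild-type DS, 283, 271 and 339.6 in rpS6P-/- Acb and 208, 257 and 203 in rpS6P-/- DS.

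Hspa13, a compact HSP70 associated with microsomes, was the member called in all 4 region comparisons. Lysates read 64.5, 66.9 and 47.7 CPM in wild-type Acb, 33.9, 34.1 and 34.7 in wild-type DS, 79.2, 57.9 and 56.8 in rpS6P-/- Acb and 36.9, 39.9 and 46.6 in rpS6P-/- DS. Heavy libraries read 45.9, 59.7 and 55.3 CPM in wild-type Acb, 21.5, 24.3 and 26.6 in wild-type DS, 63.4, 80.3 and 90.3 in rpS6P-/- Acb and 33.9, 39.9 and 18.7 in rpS6P-/- DS. Acb and DS did not overlap anywhere, and the log2 fold changes were 0.84 ± 0.17 (adjusted p = 4.87e-04) and 0.68 ± 0.17 (0.00485) in wild-type and rpS6P-/- lysates, and 1.16 ± 0.19 (7.33e-04) and 1.36 ± 0.23 (3.87e-04) in the heavy fractions.

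The ER J-proteins bring clients to BiP or help to remove them. Dnajb9 (ERdj4) read 29, 41.6 and 39.3 CPM in the lysates of wild-type Acb, 23.8, 23.8 and 19.4 of wild-type DS, 27.7, 15.8 and 31.5 of rpS6P-/- Acb and 19.8, 27.3 and 20.4 of rpS6P-/- DS. It read 46, 55.3 and 52.2 CPM in the heavy fractions of wild-type Acb, 28.2, 24.2 and 33.6 of wild-type DS, 44.8, 46.6 and 47.2 of rpS6P-/- Acb and 34.7, 39.5 and 30.2 of rpS6P-/- DS, where Acb and DS were separate in both genotypes and wild-type samples gave 0.84 ± 0.19, adjusted p = 0.00861. Dnajc3 (p58IPK), which also holds back the kinase PERK, read 44.9, 55 and 40.2 CPM in the lysates of wild-type Acb, 26.4, 27.3 and 36.6 of wild-type DS, 52.4, 44 and 39.8 of rpS6P-/- Acb and 37, 42.7 and 43.3 of rpS6P-/- DS. In the heavy fractions it read 39.5, 63.2 and 43.6 CPM in wild-type Acb, 30, 36.7 and 29.2 in wild-type DS, 52, 57.2 and 59.9 in rpS6P-/- Acb and 28.1, 37.2 and 25.7 in rpS6P-/- DS, and it was called in wild-type lysates (0.67 ± 0.19, adjusted p = 0.0137) and in rpS6P-/- heavy fractions (0.91 ± 0.19, adjusted p = 0.00214). Dnajc10 (ERdj5), a disulfide reductase, read 60.9, 67.1 and 63.2 CPM in the lysates of wild-type Acb, 52.9, 49.7 and 50.5 of wild-type DS, 71.2, 76.2 and 75.3 of rpS6P-/- Acb and 44.6, 51 and 64.8 of rpS6P-/- DS. Its heavy levels were 91.2, 93.3 and 111 CPM in wild-type Acb, 54.6, 54.4 and 59.1 in wild-type DS, 92.2, 107 and 99.5 in rpS6P-/- Acb and 71.2, 84.8 and 73.9 in rpS6P-/- DS, and it was called in rpS6P-/- lysates (0.50 ± 0.16, adjusted p = 0.0311) and wild-type heavy fractions (0.82 ± 0.16, adjusted p = 0.00379).

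**Figure D2:**
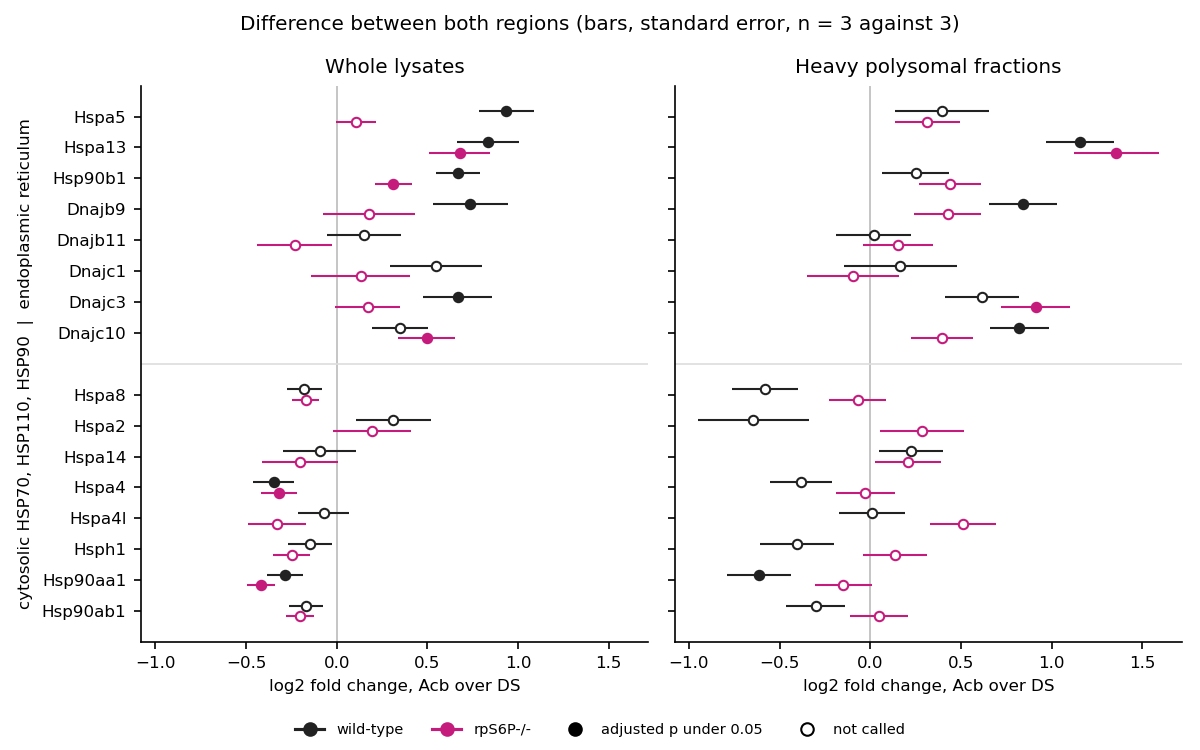
Points give the log2 fold change of Acb over DS, with bars of 1 standard error, for 8 ER members and 8 cytosolic HSP90, HSP70 and HSP110 members in lysates and in heavy fractions, with wild-type in black and rpS6P-/- in magenta. In wild-type lysates all 8 ER members lie above 0 and 7 of the 8 cytosolic members below it.

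Summed over the 8 ER members, wild-type lysates held 778, 1037 and 777 CPM in Acb and 516, 509 and 599 in DS, and rpS6P-/- lysates 808, 777 and 805 in Acb and 677, 698 and 665 in DS. The rpS6P-/- DS lysates were thus above the wild-type DS lysates in every library, and the rpS6P-/- and wild-type Acb lysates overlapped. A test of the difference between the genotypes' regional contrasts, added after the data had been seen, called 0 members in the lysates (0.00835% of genes called). It gave -0.81 ± 0.19 for Hspa5 (unadjusted p = 6.56e-05, adjusted p = 0.273, 0.949 with DESeq2). It was called without replicate 3 of the wild-type Acb lysates (adjusted p = 0.0161), without replicate 3 of the wild-type DS lysates (0.00553) and with no filter beyond 1 read (0.00317), and over all alternatives the adjusted p ran from 0.00189 to 1. In all, 5 members had unadjusted p-values under 0.05, all negative (2.35% of genes were negative at that level). With 1 library left out at a time, 3 to 5 ER members were called in wild-type lysates (3 without Acb replicate 2) and 0 to 2 in rpS6P-/- lysates (0 without DS replicate 1, 1 without Acb replicate 1 or DS replicate 2).

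Promoters were read for the ER members because they moved together. The ER stress element, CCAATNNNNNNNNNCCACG on either strand, through which unfolded proteins in the ER are known to raise transcription, was searched from 250 bases before to 50 after each start site. It occurs in 39 of 32851 promoters in RefSeq (0.119%), and 3 of the 65 members with a promoter in that table have it: Hspa5, Hsp90b1 and Dnajc3. Capitals mark the matches in the stretches before the start sites, taken from GRCm38.p6 and written 5′ to 3′ in the direction of the gene.
Hspa5 (chr2:34771940-34772089, plus strand): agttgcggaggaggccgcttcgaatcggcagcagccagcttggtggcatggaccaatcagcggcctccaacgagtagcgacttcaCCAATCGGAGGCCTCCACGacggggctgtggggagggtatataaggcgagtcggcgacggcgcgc
Hsp90b1 (chr10:86705445-86705694, minus strand): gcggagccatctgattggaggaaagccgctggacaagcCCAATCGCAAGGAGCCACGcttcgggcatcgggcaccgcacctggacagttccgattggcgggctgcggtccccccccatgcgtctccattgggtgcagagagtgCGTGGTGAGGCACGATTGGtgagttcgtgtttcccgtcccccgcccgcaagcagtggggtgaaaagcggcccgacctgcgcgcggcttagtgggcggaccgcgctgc
Dnajc3 (chr14:118937782-118937931, plus strand): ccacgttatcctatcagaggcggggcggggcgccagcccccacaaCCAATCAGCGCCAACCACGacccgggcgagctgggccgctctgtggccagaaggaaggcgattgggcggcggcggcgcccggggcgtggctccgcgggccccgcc
Hsp90b1 has 2 matches on opposite strands. All 3 genes were called higher in Acb in the wild-type lysates. A match is a description of the letters and no evidence of use in this tissue, and Hspa13, with no such match in its window, was called as well.

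Among the 15 ER folding genes outside the symbol rule, 8 were called higher in Acb in wild-type lysates, 0 in rpS6P-/- lysates, 1 in wild-type heavy fractions and 4 in rpS6P-/- heavy fractions, where 1 was called lower. Of all genes 8.23%, 6.09%, 6.13% and 10.1% were called higher, and 13.7% lower in the last. Calnexin (0.69 ± 0.11, adjusted p = 9.00e-06), the disulfide isomerase P4hb (0.68 ± 0.15, adjusted p = 7.48e-04) and Pdia6 (0.58 ± 0.14, adjusted p = 0.00398) led in wild-type lysates. Cell-type markers moved between the regions too. In wild-type lysates 5 of 7 astrocyte, 6 of 7 microglial, 4 of 7 oligodendrocyte and 2 of 4 choroid plexus markers were called higher in Acb and 4 of 5 cortical excitatory markers lower. In rpS6P-/- lysates 4, 2, 3 and 2 were higher and 4 lower. Of 9 medium spiny neuron markers 2 were called higher and 4 lower in wild-type lysates, and 2 and 3 in rpS6P-/- lysates. The part of these cell types in the ER and cytosolic differences was not tested.

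The small HSP Hspb8, which clears misfolded proteins together with Bag3, had higher means in Acb in all 4 comparisons and was called in 3. Lysates read 13.6, 16.6 and 26.5 CPM in wild-type Acb, 11.6, 12.3 and 10.5 in wild-type DS, 23.5, 28.3 and 12.8 in rpS6P-/- Acb and 14.5, 4.99 and 13.9 in rpS6P-/- DS. Heavy libraries read 26.6, 33.6 and 31.7 CPM in wild-type Acb, 11, 16.4 and 17.7 in wild-type DS, 30.2, 29.5 and 21.7 in rpS6P-/- Acb and 17.7, 14.8 and 11.6 in rpS6P-/- DS. It was called in all but wild-type lysates, where the regions did not overlap either (0.73 ± 0.28, adjusted p = 0.0758), and in the heavy fractions they did not overlap, whereas in rpS6P-/- lysates 1 Acb library lay below 2 of the DS libraries (1.03 ± 0.23, adjusted p = 0.00818 in wild-type and 0.91 ± 0.23, adjusted p = 0.00764 in rpS6P-/- heavy fractions). Bag3 itself had higher means in Acb in all 4 comparisons, with log2 fold changes of 0.25 to 0.71, and was called in none. Dnajc18, a transmembrane J-protein, was called in wild-type lysates only, at 106, 111 and 123 CPM in Acb and 74.9, 73.1 and 69.7 in DS (0.67 ± 0.14, adjusted p = 3.64e-04).

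The members called lower in Acb in lysates were cytosolic. Dnajc6 (auxilin), which recruits Hspa8 to strip clathrin from vesicles, read 184, 170.04 and 173 CPM in the lysates of wild-type Acb, 263, 234 and 224 of wild-type DS, 192, 180.2 and 149 of rpS6P-/- Acb and 239.8, 267 and 247 of rpS6P-/- DS. In the heavy fractions it read 98.7, 102 and 108 CPM in wild-type Acb, 134, 169 and 159.6 in wild-type DS, 120.3, 137 and 162 in rpS6P-/- Acb and 158, 136 and 143 in rpS6P-/- DS, overlapping in rpS6P-/- samples, and it was called in the other 3 pairs (-0.42 ± 0.12, adjusted p = 0.0114 and -0.51 ± 0.11, adjusted p = 0.00133 in the lysates and -0.58 ± 0.16, adjusted p = 0.0282 in wild-type heavy fractions). Hsp90aa1, with the values given above, was called in the same 3 pairs (-0.29 ± 0.10, adjusted p = 0.0472, -0.42 ± 0.08, adjusted p = 1.24e-04 and -0.61 ± 0.18, adjusted p = 0.0399). Dnajb5, a J-protein expressed in brain and muscle, read 101, 90.2 and 80 CPM in the lysates of wild-type Acb, 136, 145 and 162 of wild-type DS, 81.1, 136 and 114 of rpS6P-/- Acb and 149.8, 178 and 130.3 of rpS6P-/- DS and was called in both genotypes (-0.67 ± 0.13, adjusted p = 2.69e-04 in wild-type and -0.45 ± 0.14, adjusted p = 0.0317 in rpS6P-/- mice). Hspa4, also given above, had every lysate value lower in Acb than in DS (-0.35 ± 0.11, adjusted p = 0.0315 in wild-type mice). In rpS6P-/- lysates Hspa12a (-0.38 ± 0.11, adjusted p = 0.0161) and Chordc1 (-0.51 ± 0.14, adjusted p = 0.0152) were lower and Pfdn5 higher (0.44 ± 0.11, adjusted p = 0.00306). Called in both genotypes of lysates were 6 members, Hsp90b1 and Hspa13 higher and Dnajb5, Dnajc6, Hsp90aa1 and Hspa4 lower, which is 60.0% of the 10 called in wild-type and 50.0% of the 12 called in rpS6P-/- lysates. The share of all genes called in both was not counted.

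**Figure D3:**
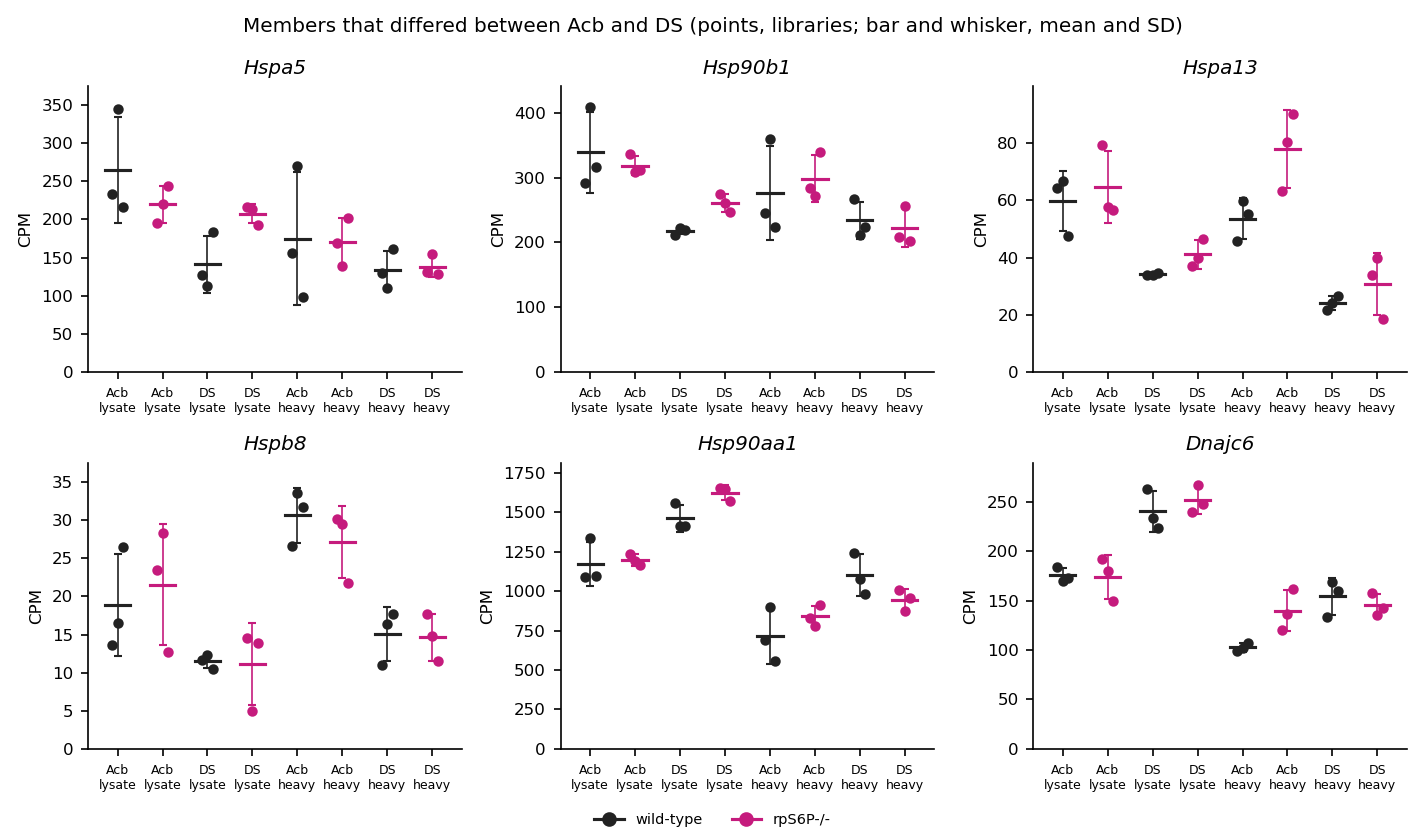
Each point is the CPM of 1 library and each bar the group mean for Hspa5, Hsp90b1, Hspa13, Hspb8, Hsp90aa1 and Dnajc6 in the 8 groups. Hspa13 is higher in every Acb library than in every DS library of the same genotype and fraction, and Hsp90aa1 is lower in Acb in all lysates.

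In the rpS6P-/- heavy fractions CCT, prefoldin and Hspe1 mRNAs were called between the regions. Cct3, Cct6a and Cct7, subunits of the CCT ring, were called higher in Acb (0.67 ± 0.20, adjusted p = 0.021, 0.70 ± 0.19, adjusted p = 0.0112 and 0.58 ± 0.19, adjusted p = 0.0338), and the family's median was 0.40. With 1 library left out, 0 to 3 CCT subunits were called higher (0 without DS replicate 2 or 3 and 1 without Acb replicate 3). All 4 prefoldin members were called lower (median -1.0), led by Pfdn4 (-1.17 ± 0.21, adjusted p = 5.06e-04) and Pfdn1 (-1.22 ± 0.22, adjusted p = 6.14e-04), and Dnajc15 (-1.18 ± 0.25, adjusted p = 0.00197) and Hspe1 (-0.84 ± 0.18, adjusted p = 0.00286) were lower too. With the trend on coding length removed, the prefoldin median was -0.25 and 0 of 4 were called, and Hspe1 stood at 0.23. The median over all genes with the minimum was then 0.12, and 0.03 with the trend kept. In wild-type heavy fractions the family medians were -0.17 for CCT and -0.16 for prefoldin, with 0 members called.

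The question of the study, whether rpS6 phosphorylation alters which mRNAs are translated, was asked of the chaperones in each region. In Acb heavy fractions CCT mRNAs had higher and prefoldin mRNAs lower levels in rpS6P-/- than in wild-type mice, but no member passed the adjusted threshold. With edgeR 0 of 79 members were called (0% of genes with the minimum), the lowest adjusted p being 0.0983 for Pfdn4. At an unadjusted p under 0.05 there were 19 members higher and 12 lower (13.2% and 14.3% of genes), and DESeq2 called 7 and 5 (3.93% and 4.01%). Groups did not overlap in 18 members with higher and 10 with lower values (13.8% and 15.8% of genes). The members' median was 0.15, next to 0.02 over all genes with the minimum.

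All 8 CCT subunits, which fold actin and tubulin as 1 ring, had positive log2 fold changes of 0.35 to 0.66 (median 0.48). Summed over them, wild-type Acb heavy libraries held 934, 1200 and 889 CPM and rpS6P-/- libraries 1239.7, 1249 and 1647. All 8 had unadjusted p-values under 0.05, 7 did not overlap between genotypes and DESeq2 called 2. With 1 library left out, all 8 stayed positive, with medians of 0.31 to 0.63, and 2 to 8 had an unadjusted p under 0.05 (2 without wild-type replicate 1 or 3, 4 without rpS6P-/- replicate 3, which gave the lowest median). Cct7 read 131, 205 and 136 CPM in wild-type and 223, 213 and 289 in rpS6P-/- Acb heavy fractions (0.66 ± 0.19, adjusted p = 0.11). Cct3 read 85.8, 109 and 77.5 CPM in wild-type and 115, 121 and 171 in rpS6P-/- libraries, without overlap (0.62 ± 0.19, adjusted p = 0.116). Cct6a read 114, 167 and 113 CPM in wild-type and 168, 168 and 223 in rpS6P-/- libraries, the highest wild-type library standing just under the lowest rpS6P-/- library (0.55 ± 0.19, adjusted p = 0.132). In Acb lysates the CCT median was -0.05, and the summed levels given above overlapped.

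In DS heavy fractions 0 CCT subunits were called, with 7 of 8 fold changes negative and a median of -0.11. Cct7 read 144, 214 and 162 CPM in wild-type and 199, 151 and 140.2 in rpS6P-/- DS. Cct3 read 97.1, 91.3 and 88.9 CPM in wild-type and 104, 76.1 and 79 in rpS6P-/- DS. The genotypes overlapped in both, as they did in Cct6a. The difference between the Acb and DS genotype effects was positive for all 8 subunits (median 0.59), with Cct3 (0.72 ± 0.26, adjusted p = 0.217) and Cct6a (0.71 ± 0.26, adjusted p = 0.219) among the members lowest in p, and was called for none.

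Prefoldin, the complex that delivers clients to CCT, had negative fold changes in all 4 subunits among the members. A further subunit, Vbp1, lies outside the symbol rule and is left out of the sums and medians given here. The 4 member subunits summed to 657, 490 and 612 CPM in wild-type and 412, 403 and 236 in rpS6P-/- Acb heavy fractions, which do not overlap. Pfdn4 read 75.9, 48.4 and 64.1 CPM in the heavy fractions of wild-type Acb, 32.2, 38.7 and 22.8 of rpS6P-/- Acb, 89.6, 42.5 and 63.2 of wild-type DS and 66.3, 62.4 and 85.4 of rpS6P-/- DS. In the lysates it read 27.7, 37.4 and 35.4 CPM in wild-type Acb, 32.7, 30.3 and 31.7 in rpS6P-/- Acb, 36.2, 30.4 and 23.9 in wild-type DS and 28.1, 33.8 and 33.6 in rpS6P-/- DS. The wild-type and rpS6P-/- Acb heavy values were apart and the lysates were not (-0.97 ± 0.21, adjusted p = 0.0983 in Acb heavy fractions). Pfdn1 read 153, 108 and 152 CPM in the heavy fractions of wild-type Acb, 87.8, 87.1 and 43.8 of rpS6P-/- Acb, 179, 94.7 and 168 of wild-type DS and 169.9, 152 and 195 of rpS6P-/- DS. In the lysates it read 74.1, 102 and 98.9 CPM in wild-type Acb, 81.5, 84.4 and 83.8 in rpS6P-/- Acb, 99.5, 80.9 and 92.1 in wild-type DS and 82.5, 99.2 and 77 in rpS6P-/- DS, and its Acb heavy value was -0.88 ± 0.23, adjusted p = 0.1.

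Pfdn5, which also binds the MYC protein, read 306, 230.2 and 270.4 CPM in the heavy fractions of wild-type Acb, 200.1, 192 and 117 of rpS6P-/- Acb, 468, 257 and 335 of wild-type DS and 267, 286 and 364 of rpS6P-/- DS. Lysates held 248, 274 and 358 CPM in wild-type Acb, 300.3, 289.9 and 296 in rpS6P-/- Acb, 253, 235 and 249 in wild-type DS and 242, 229.96 and 191 in rpS6P-/- DS. Its Acb heavy groups were separate (-0.63 ± 0.19, adjusted p = 0.116), and so were those of Pfdn2 (-0.58 ± 0.19, adjusted p = 0.13). Pfdn2 read 122, 103 and 126 CPM in the heavy fractions of wild-type Acb, 92.1, 85 and 51.8 of rpS6P-/- Acb, 162, 98.8 and 151 of wild-type DS and 121, 123 and 145 of rpS6P-/- DS and 117, 112 and 127 CPM in the lysates of wild-type Acb, 123, 115 and 96.4 of rpS6P-/- Acb, 123, 127 and 122 of wild-type DS and 125, 109 and 107 of rpS6P-/- DS. DESeq2 called all 4 subunits lower in Acb heavy fractions. Replicate 3 of the rpS6P-/- Acb heavy libraries was the lowest of all heavy libraries for each of the 4, and without it their median moved from -0.76 to -0.53. In DS heavy fractions 2 of 4 fold changes were negative and the median was 0.03.

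**Figure D4:**
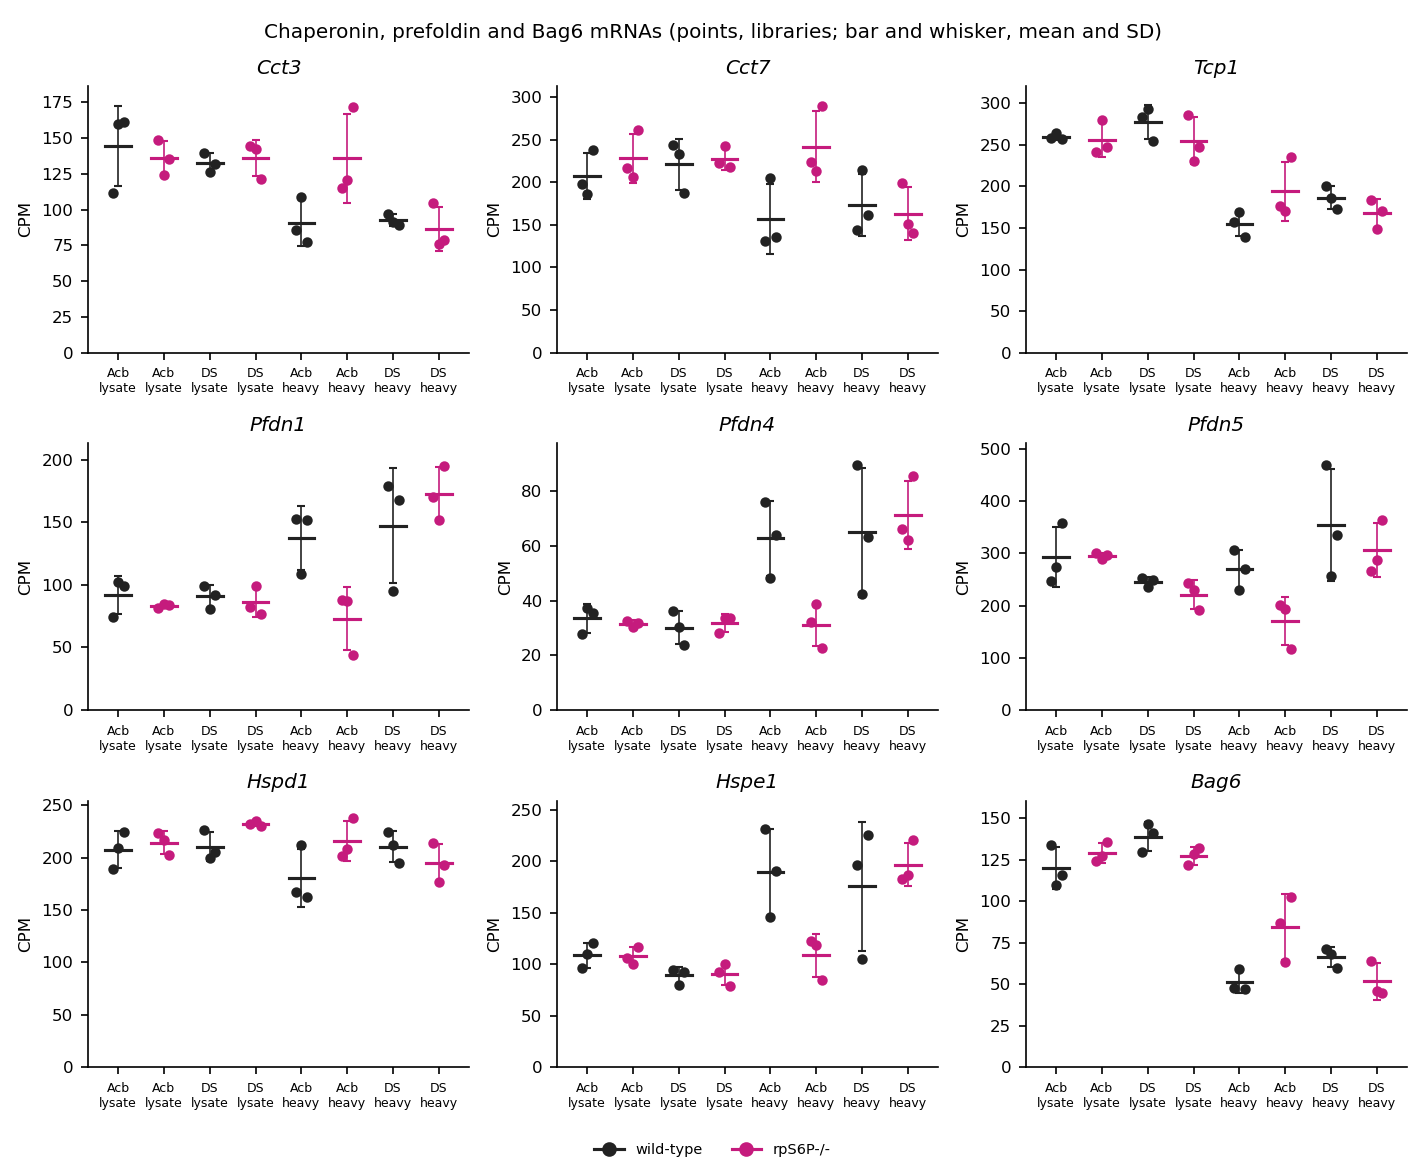
Each point is the CPM of 1 library and each bar the group mean for Cct3, Cct7, Tcp1, Pfdn1, Pfdn4, Pfdn5, Hspd1, Hspe1 and Bag6 in the 8 groups. In Acb heavy fractions the 3 rpS6P-/- libraries lie above the wild-type ones for Cct3, Cct7 and Bag6 and below them for Pfdn1, Pfdn4, Pfdn5 and Hspe1.

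In the same fractions neither gene of the mitochondrial chaperonin pair was called. Hspe1 (HSP10, the lid) read 231, 146 and 191 CPM in the heavy fractions of wild-type Acb, 123, 118 and 84.9 of rpS6P-/- Acb, 197, 105 and 225 of wild-type DS and 183, 187 and 221 of rpS6P-/- DS. Its lysates held 96.1, 109.6 and 120.5 CPM in wild-type Acb, 106, 100.1 and 117 in rpS6P-/- Acb, 94.6, 80.2 and 92.9 in wild-type DS and 92.9, 100.1 and 79.1 in rpS6P-/- DS. Acb heavy libraries were lower in rpS6P-/- without overlap (-0.76 ± 0.19, adjusted p = 0.0992), and the lysates overlapped. Hspd1 (HSP60, the chamber) read 167, 212 and 162 CPM in the heavy fractions of wild-type Acb, 202, 208 and 238 of rpS6P-/- Acb, 224, 212 and 195 of wild-type DS and 214, 176 and 193 of rpS6P-/- DS. Its lysates held 189, 209 and 224 CPM in wild-type Acb, 224, 217 and 202 in rpS6P-/- Acb, 226, 199 and 206 in wild-type DS and 232, 235 and 230.1 in rpS6P-/- DS, and its Acb heavy fold change was 0.30 ± 0.16, adjusted p = 0.292, with overlapping groups. The genes are transcribed away from each other from start sites 216 bases apart on chromosome 1 (Hspd1 at 55087932 and Hspe1 at 55088148), so that 1 promoter serves both. It holds the heat shock element, searched as GAANNTTCNNGAA on either strand, which occurs in 198 of 32851 promoters (0.603%) and in those of 5 members, Chordc1, Dnajb6, Hspd1, Hspe1 and Hsph1. The shared stretch is shown in the direction of Hspe1, beside that of Chordc1, the called member with 3 overlapping matches. Capitals mark the matched bases.
Hspe1 (chr1:55087998-55088147, plus strand): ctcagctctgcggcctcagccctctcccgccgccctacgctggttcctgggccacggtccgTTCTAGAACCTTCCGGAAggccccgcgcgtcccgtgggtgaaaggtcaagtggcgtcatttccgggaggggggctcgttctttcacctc
Chordc1 (chr9:18292187-18292288, plus strand): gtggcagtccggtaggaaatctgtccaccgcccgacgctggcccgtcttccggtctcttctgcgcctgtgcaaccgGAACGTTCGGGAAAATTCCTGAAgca
The coding sequence of Hspe1 has 306 bases and that of Hspd1 1719.

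Coding length moved with the genotype difference in Acb heavy fractions. The rank correlation over the 78 members was 0.62 (0.50 over 11659 genes), and 0.26 with the trend over all genes removed. Of the 24 members with coding sequences under 1000 bases 20 were lower in rpS6P-/- (median -0.33), and of the 54 longer ones 46 were higher (median 0.28). Over genes, the rank correlation between coding length and each library's deviation was -0.42, -0.25 and -0.30 in the wild-type and 0.08, 0.24 and 0.52 in the rpS6P-/- Acb heavy libraries, so the 6 libraries differ in a feature that spans the whole table. CCT coding sequences are 1605 to 1668 bases in all subunits but Cct6a, which has no annotated length, and those of prefoldin 366 to 462. The trend was therefore not removed for Cct6a. With the trend removed the CCT median was 0.43, the prefoldin median -0.14 and Hspe1 0.06, next to a median of 0.09 over all genes with the minimum. That median was 0.02 before the removal, so Hspe1 changed sign but stayed below the median of all genes. The part of length in the genotype difference was not tested further.

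Bag6 and Dnajc16 had the lowest p-values among the members that were higher in rpS6P-/- Acb heavy fractions. Bag6, whose libraries are listed above, did not overlap between genotypes (0.75 ± 0.19, adjusted p = 0.1), and in DS, where the values overlapped, its mean was higher in wild-type mice (-0.35 ± 0.20, adjusted p = 0.801). The difference between the regions was 1.11 ± 0.27, adjusted p = 0.0832, the lowest adjusted p of any member, and DESeq2 called it. Dnajc16, a J-protein with a thioredoxin fold, read 14.5, 19.7 and 16.9 CPM in wild-type and 27.9, 25.6 and 25.7 in rpS6P-/- Acb heavy fractions (0.67 ± 0.19, adjusted p = 0.106). In DS heavy fractions it read 5.93, 13.7 and 12.2 CPM in wild-type and 13.8, 24.4 and 13.1 in rpS6P-/- mice (0.69 ± 0.31, adjusted p = 0.772).

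In DS heavy fractions 0 members were called (0.0584% of genes), with 2 higher and 4 lower at an unadjusted p under 0.05 (4.27% and 3.03% of genes) and 0 with DESeq2. Dnajc10 held 54.6, 54.4 and 59.1 CPM in wild-type and 71.2, 84.8 and 73.9 in rpS6P-/- DS heavy fractions, with no overlap (0.46 ± 0.19, adjusted p = 0.712). Hspa2, best known from the testis, read 30.2, 28.1 and 17.1 CPM in wild-type and 15.2, 14.9 and 18.7 in rpS6P-/- DS heavy fractions (-0.61 ± 0.26, adjusted p = 0.761). Dnajc18 (0.36 ± 0.19, adjusted p = 0.781), Dnajc8 (-0.37 ± 0.18, adjusted p = 0.772) and Ahsa1 (-0.35 ± 0.17, adjusted p = 0.772) were the others with the lowest p-values, none of them called.

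In lysates the genotypes were compared in the same way. In DS lysates Hspa5 and Chordc1 rose in rpS6P-/- mice and Dnajc30 fell, 3 of 79 members (0.159% of genes), while DESeq2 called 4 higher and 0 lower and gave no adjusted p for Dnajc30. Chordc1, an HSP90-binding protein, read 70.6, 77.1 and 52 CPM in the lysates of wild-type Acb, 77, 66.2 and 58.1 of rpS6P-/- Acb, 67.8, 56.6 and 63.7 of wild-type DS and 112, 90.2 and 89.1 of rpS6P-/- DS. Its 3 rpS6P-/- DS values were above all 9 others (0.61 ± 0.13, adjusted p = 0.0432), and in the heavy fractions it read 61.4, 69.8 and 36.3 CPM in wild-type Acb, 70.8, 58.5 and 85.2 in rpS6P-/- Acb, 47.9, 58.4 and 57.5 in wild-type DS and 84.8, 60.8 and 57.4 in rpS6P-/- DS. Hspa5, whose lysate values stand above, was higher in every rpS6P-/- than in every wild-type DS library (0.54 ± 0.12, adjusted p = 0.0451). Dnajc30, a mitochondrial J-protein that assists the respiratory chain, read 28.3, 28.1 and 29.2 CPM in the lysates of wild-type Acb, 19.9, 20.5 and 29.3 of rpS6P-/- Acb, 39.8, 38.2 and 36 of wild-type DS and 21, 18.6 and 23.1 of rpS6P-/- DS, with separate DS groups (-0.88 ± 0.19, adjusted p = 0.0383). These adjusted p-values were close to the threshold, and with 1 library left out 0 or 1 members were called in 5 of the 6 cases (3 without wild-type replicate 3). The wild-type DS lysates also enter the regional comparison of Hspa5, so the 2 results are not independent. Of the 8 ER members 7 had positive fold changes there (median 0.25), Dnajb9 being the exception (-0.01 ± 0.21).

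In Acb lysates 0 members were called (0.00835% of genes), with 1 higher and 2 lower at an unadjusted p under 0.05 (1.2% and 1.69% of genes) and 0 with DESeq2. The lowest p-values went with Dnajb2 (0.33 ± 0.15), Dnajc17 (0.67 ± 0.35) and Dnajb5 (0.27 ± 0.16) on the higher side and Dnajb9 (-0.55 ± 0.24), Hspa5 (-0.28 ± 0.14) and Bag5 (-0.32 ± 0.18) on the lower, each with an adjusted p of 1.

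**Figure D5:**
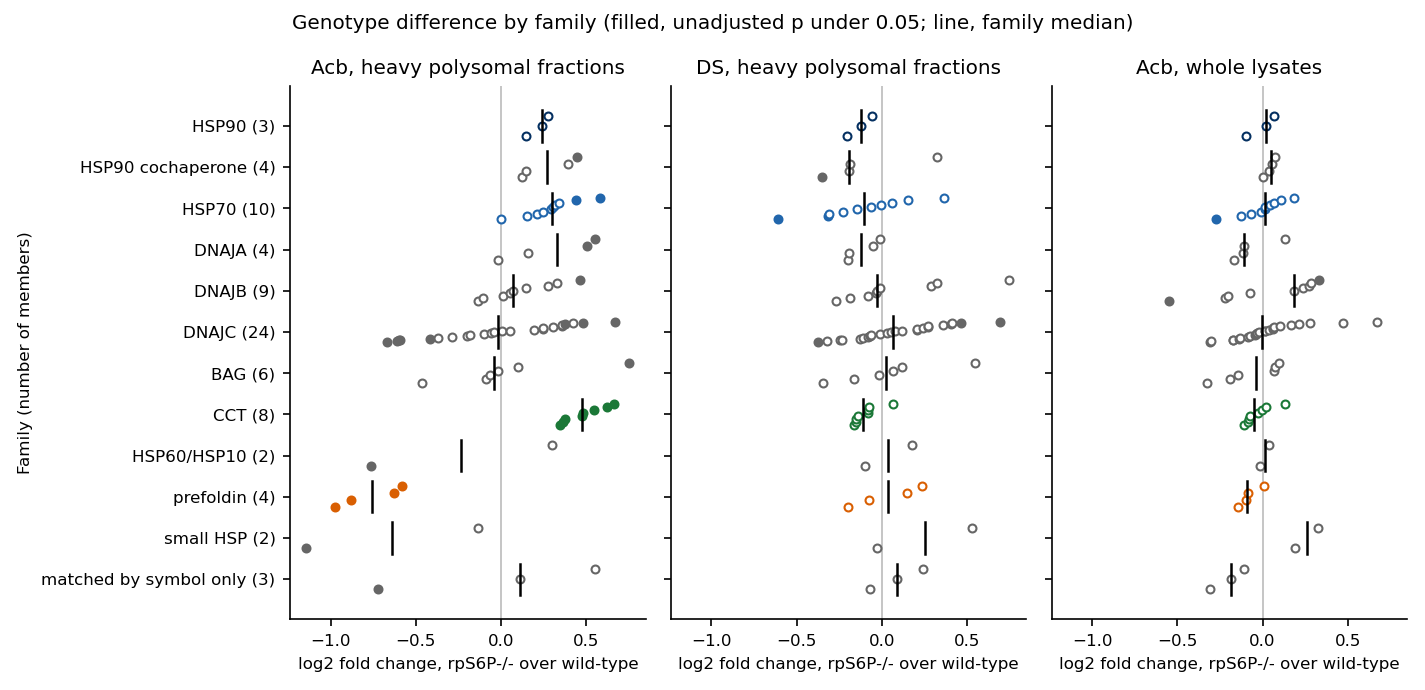
Points give each member's log2 fold change of rpS6P-/- over wild-type by family in Acb heavy fractions, DS heavy fractions and Acb lysates, with filled points for unadjusted p under 0.05 and a line at each family's median. In Acb heavy fractions the CCT median is 0.48 and the prefoldin median -0.76, and in Acb lysates they are -0.05 and -0.09.

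Translational efficiency, the genotype difference in heavy fractions less that in lysates, was called for 0 members in Acb (0% of genes) and 0 in DS (0%), also with DESeq2. In Acb DESeq2 gave no adjusted p for a part of the members, Pfdn4 among them. The study used another method for translational efficiency, Xtail, which was not run here. With it the authors reported altered genes in both regions, many more of them in Acb. At an unadjusted p under 0.05 there were 13 members higher and 9 lower in Acb (6.81% and 7.41% of genes) and 2 and 7 in DS (2.77% and 2.03%). In Acb all 8 CCT subunits were positive (median 0.50, 6 with unadjusted p under 0.05) and all 4 prefoldin members negative (median -0.69). Dnajb6 (0.66 ± 0.22, adjusted p = 0.258), Dnaja1 (0.72 ± 0.24, adjusted p = 0.258), the common partner of HSC70, and Cct3 (0.71 ± 0.25, adjusted p = 0.283) were first on the higher side, and Hspe1 (-0.75 ± 0.24, adjusted p = 0.252), Pfdn4 (-0.89 ± 0.29, adjusted p = 0.258) and Pfdn1 (-0.74 ± 0.27, adjusted p = 0.3) on the lower. In DS Dnajc30 (1.13 ± 0.30, adjusted p = 0.66), Hspb11 (0.89 ± 0.38, adjusted p = 1) and the mitochondrial import gene Dnajc19 (0.86 ± 0.48, adjusted p = 1) were highest by p, and Hsph1 (-0.49 ± 0.20, adjusted p = 1), Hspa2 (-0.75 ± 0.33, adjusted p = 1) and Hspa5 (-0.51 ± 0.22, adjusted p = 1) lowest.

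The genotype effect differed between the regions' heavy fractions past the threshold in 0 members (0.00835% of genes), with 19 positive and 8 negative at an unadjusted p under 0.05 (8.11% and 8.94% of genes) and 1, Bag6, with DESeq2. DESeq2 gave no adjusted p for a part of the members there, such as Bag2 and Dnajc19. Pfdn1 (-1.11 ± 0.33, adjusted p = 0.136), Pfdn4 (-1.10 ± 0.33, adjusted p = 0.137) and Hspe1 (-0.92 ± 0.31, adjusted p = 0.178) had the lowest p-values on the negative side, and the rank correlation between this difference and coding length over the members was 0.57.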

How the data were processed

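RNA from whole lysates and heavy polysomal fractions was sequenced with a stranded kit. The authors aligned the reads to mm10 with TopHat2 2.0.13 and Bowtie2 2.2.3 and counted them per gene with HTSeq 0.6.1p1, and the deposited values are raw read counts for 24079 genes and 24 libraries of 9280589 to 34703044 reads. Genes with at least 15 reads summed over the libraries compared were tested with edgeR 4.0.16 (TMM, quasi-likelihood test, Benjamini-Hochberg adjustment over all genes tested) in R 4.3.3, and a member is called at an adjusted p under 0.05. Checked on simulated counts, the fits recovered known changes that were larger than the genotype differences named above. Smaller changes were not simulated, so the check does not show that differences of this size would be called. DESeq2 1.42.0 and the other alternatives stand in the closing section. Levels are TMM-scaled CPM over the 24 libraries. The members and gene lists were chosen with earlier results of these data known. Named are, per comparison and direction, the 4 called members with the lowest p, or the 3 lowest where none was called, and a fixed list of well-known chaperones. Coding lengths are from GENCODE and promoters from RefSeq GRCm38.p6. Libraries are pools of mice, and nothing shows that the pools of 1 group came from separate experiments, so p-values measure the spread between these libraries. Same-numbered heavy and lysate libraries were taken to share a lysate, which the labels do not state, and their deviations correlated by at most 0.0743 (12 pairs).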

Additional observations from a re-analysis of the deposited data

How the results depend on the processing

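Of 1070 values (107 member and comparison pairs under 10 other settings) 996 kept their direction and side of the threshold, 36 lost and 34 gained a call and 4 changed sign. The 4 are all Hspe1, at 0.064 in Acb heavy fractions (rpS6P-/- over wild-type) and 0.23 in rpS6P-/- heavy fractions (Acb over DS) once the trend on coding length was removed, without and with the replicate block (0.059 and 0.23). Without the block, the medians over all genes with the minimum were then 0.09 and 0.12. Hspe1 was thus below that median between genotypes and above it between regions. The cause of the changes below was not tested.

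For genotype in Acb heavy fractions the 0 members called became 6 with no filter beyond 1 read, 12 with DESeq2 and 10 with all 24 libraries in one fit, and 0 with any 1 library left out. For genotype in DS lysates the 3 became 0 with filterByExpr, 0 with all 24 libraries, 1 with the coding trend and 0 with the transcript-length trend removed, and 0 to 3 with 1 library left out (1 without wild-type replicate 1, 0 without wild-type replicate 2 or any rpS6P-/- replicate). Between regions, the 12 in rpS6P-/- lysates became 6 with all 24 libraries. With 1 library left out, they became 4 to 9 (7 without Acb replicate 3, 4 without DS replicate 1 and 5 without DS replicate 2), the 10 in wild-type lysates 6 to 11 (6 without Acb replicate 2 or DS replicate 1), the 7 in wild-type heavy fractions 4 to 6 (4 without replicate 3 of either region) and the 17 in rpS6P-/- heavy fractions 10 to 19 (10 without DS replicate 3). The difference of genotype effects between regions in heavy fractions went from 0 to 4 with no filter, 1 with DESeq2 and 4 with all 24 libraries, and 0 to 1 with 1 library left out (1 without wild-type Acb replicate 2 or wild-type DS replicate 3). In lysates it went from 0 to 1 with no filter and 0 to 1 with 1 library left out (1 without replicate 3 of wild-type Acb or wild-type DS). Heavy over lysate, leaving out 1 library gave 32 to 46 calls in wild-type Acb, 20 to 30 in rpS6P-/- Acb, 25 to 36 in wild-type DS and 37 to 46 in rpS6P-/- DS.

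Between genotypes and between regions the libraries share only a number, and their same-numbered deviations correlated from -0.294 to 0.319 and from -0.256 to 0.217, with 2 and 1 of 12 pairs over 0.1. With the replicate block the calls were 1 for genotype in Acb heavy fractions, 15 for region in wild-type heavy fractions (15 with the coding trend removed too), 4 for the difference between regions in heavy fractions (1 with the coding trend removed too) and 1 in lysates (1 likewise), which is Hspa5 (-0.82, adjusted p = 0.00628 with the block). For the heavy and lysate pairs, taken from their numbers to share a lysate, the block gave 51, 30, 35 and 47 calls, within 1.5 times of the values without it.

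With 3 libraries a group and 9280589 reads in the smallest, scarce members have wide errors: Dnajb14, lowest per kilobase, was called between regions in wild-type heavy fractions alone, and Hspb6, with a mean of 80.3 reads, in rpS6P-/- heavy fractions alone.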

Other observations

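Further members, picked here after their values had been seen, were called between heavy fractions and lysates. Hspa9 (mortalin), the HSP70 that pulls proteins into mitochondria, read 173, 193 and 267 CPM in the lysates of wild-type Acb, 183, 212 and 187 of rpS6P-/- Acb, 223, 219 and 205 of wild-type DS and 194, 219 and 205 of rpS6P-/- DS. Its heavy libraries read 104, 123 and 104 CPM in wild-type Acb, 125, 145 and 169.5 in rpS6P-/- Acb, 130.2, 159 and 120.3 in wild-type DS and 130.3, 121 and 115 in rpS6P-/- DS, and it was called lower in wild-type Acb (-0.98 ± 0.16, adjusted p = 4.47e-05), wild-type DS (-0.66 ± 0.15, adjusted p = 0.00138) and rpS6P-/- DS (-0.79 ± 0.14, adjusted p = 5.89e-06). The HSP10 gene Hspe1, also mitochondrial, was called higher in the same 3 groups. Hspa4l, an HSP110 relative, was called lower in those groups as well, from -0.61 ± 0.15 in wild-type Acb to -1.21 ± 0.16 in rpS6P-/- DS.

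A pair of ER J-proteins was called in opposite directions between heavy fractions and lysates. Dnajb11 (ERdj3), a soluble partner of BiP with a coding sequence of 1074 bases, held 32.9, 33 and 36.8 CPM in the lysates of wild-type Acb, 29.8, 36 and 22.7 of rpS6P-/- Acb, 24.6, 28.4 and 41.4 of wild-type DS and 35, 37.7 and 32.8 of rpS6P-/- DS. Its heavy libraries held 44.4, 68.8 and 42.2 CPM in wild-type Acb, 57.2, 45.6 and 56.2 in rpS6P-/- Acb, 54.9, 42.5 and 56.6 in wild-type DS and 37.1, 54.7 and 53 in rpS6P-/- DS, and it was called higher in wild-type Acb (0.55 ± 0.19, adjusted p = 0.0354), rpS6P-/- Acb (0.83 ± 0.21, adjusted p = 0.00668) and wild-type DS (0.71 ± 0.21, adjusted p = 0.0118). Dnajc1 (ERdj1), a membrane protein that touches the ribosome, has 1656 coding bases and held 20.5, 19.7 and 17.9 CPM in the lysates of wild-type Acb, 16.7, 18 and 24.3 of rpS6P-/- Acb, 15.3, 11.3 and 14 of wild-type DS and 12.8, 23.7 and 18.3 of rpS6P-/- DS. It held 13.3, 11.7 and 8.05 CPM in the heavy fractions of wild-type Acb, 11.4, 9.26 and 10.7 of rpS6P-/- Acb, 6.2, 10.8 and 12.5 of wild-type DS and 12.2, 9.22 and 12.5 of rpS6P-/- DS and was called lower in wild-type Acb (-0.87 ± 0.25, adjusted p = 0.0108), rpS6P-/- Acb (-0.94 ± 0.27, adjusted p = 0.0169) and rpS6P-/- DS (-0.73 ± 0.27, adjusted p = 0.0341).

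Dnajc12, a cochaperone of the hydroxylases that make tyrosine, dopamine and serotonin, held 15.7, 20.7 and 13.1 CPM in the lysates of wild-type Acb, 17.9, 18 and 24.5 of rpS6P-/- Acb, 21.1, 10.8 and 9.28 of wild-type DS and 19.2, 16.5 and 15.2 of rpS6P-/- DS. It held 33.6, 27.2 and 39.4 CPM in the heavy fractions of wild-type Acb, 30.8, 35.9 and 27 of rpS6P-/- Acb, 26.2, 24.6 and 36.7 of wild-type DS and 23.3, 28.2 and 29.2 of rpS6P-/- DS and was called higher there in all but rpS6P-/- Acb (0.96 ± 0.22, adjusted p = 0.00167 in wild-type Acb). Members called between regions in 1 comparison only, besides those already described, were Dnajb14 in wild-type heavy fractions (1.46 ± 0.41, adjusted p = 0.0325), Hspb6 (-1.33 ± 0.42, adjusted p = 0.0304), Dnajc30 (-1.0 ± 0.23, adjusted p = 0.00445), Bag1 (-0.86 ± 0.22, adjusted p = 0.00898), Dnajc14 (-0.62 ± 0.19, adjusted p = 0.025) and Bag6 (0.72 ± 0.21, adjusted p = 0.0176) in rpS6P-/- heavy fractions and Dnaja1 in rpS6P-/- lysates (-0.32 ± 0.10, adjusted p = 0.0273).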
